A study of Gossypium herbaceum with 12 samples.

Results

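Heat shock transcripts were followed in root RNA of *Gossypium herbaceum*, a diploid cotton: the heat stress transcription factor HSFA2, the chaperone HSP90.1 and small heat shock proteins. They were 6 probe sets of the Affymetrix cotton array, picked by their identifiers from the 24132 probe sets of the deposited table, of which 24029 remained for testing after 103 control probe sets were left out. The 6 are Ghi.10292.1.S1_s_at (HSFA2), GhiAffx.17865.1.S1_at (HSP90.1), Ghi.2233.1.S1_at (HSP21), Ghi.5679.1.S1_s_at (HSP17.6B-CI), Ghi.9308.1.S1_at (HSP18.2) and Ghi.5794.1.A1_s_at (low molecular weight heat shock protein). The names are those of matches in *Arabidopsis thaliana* or in other plants, as the study's annotation gives them. The suffix _s_at marks a probe set whose probes match several similar transcripts, so the HSFA2, HSP17.6B-CI and low molecular weight values can each sum over related copies.

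The roots came from month-old potted plants of 2 genotypes, grown in a glass house. Droughted Vagad, the genotype labelled tolerant, had water withheld so that soil moisture stayed below 30%, and watered Vagad was irrigated daily. Droughted RAHS-14 and watered RAHS-14, of the genotype labelled sensitive, were treated in the same ways. Each of the 4 groups had 3 arrays, 12 in all. Labels and methods describe the length of the drought differently, which was not resolved here. The drought went on until visible differences appeared, and each group was 3 pots.

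Heat shock proteins are chaperones, which bind proteins that have lost their fold. Small heat shock proteins hold such proteins in a soluble state without using ATP, and the HSP70 and HSP90 machines, which do use ATP, refold them or help them mature. Genes of the family carry heat shock elements in their promoters and are switched on by heat stress factors. HSFA2 is itself induced by heat, and in *Arabidopsis* it prolongs the response by driving small heat shock protein genes. In plants these genes are low in most unstressed vegetative tissues and respond to heat, drought, high light and oxidative stress.

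The values are linear MAS5 intensities, in which each array was scaled by a single factor. Intensities under 16 were set to 16, and no member was under 16 on any array. Differences are log2 fold changes, drought over watering or Vagad over RAHS-14, with their standard error (SE). A probe set was called at an adjusted p under 0.05 (limma, Benjamini-Hochberg over the 24029) and a fold change of at least 2.

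Arrays 1 and 2 of droughted Vagad stood apart from the rest. Their median intensities were 322 and 345, against 60.8 to 74.2 on the other 10 arrays, and their mean correlation with those arrays was 0.610 and 0.461, where the 10 correlated at 0.973 to 0.983 with each other. Array 3 of droughted Vagad resembled the others in these measures. On it, however, actin was measured 41.3 times as high by the 3' as by the 5' control probe set. This ratio was 12.5 to 20.2 in the other groups (9 arrays). For ubiquitin the ratio was 4.35 on array 3, within the 1.75 to 4.76 of those 9 arrays. Droughted Vagad is therefore given array by array, and each comparison that uses it is given with and without arrays 1 and 2. All 4 root marker probe sets (for ARSK1, WER and NRT1.5) were above the floor on every array. So were 4 leaf markers (for Lhcb1, PORA, RCA and PSAD), whose summed intensity was 620 to 781 in droughted Vagad, 1680 to 1764 in watered Vagad, 1225 to 1268 in droughted RAHS-14 and 3065 to 3298 in watered RAHS-14. The summed root markers had 552 to 1870, 1214 to 1281, 782 to 929 and 1048 to 1116 in the same groups. Single markers differed in direction. From watered to droughted RAHS-14 the median rose for ARSK1 (202 to 302) and WER (82.2 to 225). It fell for both NRT1.5 probe sets (438 to 175 and 348 to 137). In Vagad 1 NRT1.5 probe set fell (697 to 123) and the other rose (190 to 626). The leaf marker PORA rose in Vagad (101 to 397), while the other leaf markers fell. The part of these shifts in the heat shock results was not tested, and in bulk roots fewer cells of a type and less RNA per cell cannot be told apart.

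The name of Ghi.5794.1.A1_s_at is uncertain. The study's list of 156 probe sets higher in watered RAHS-14 pairs identifiers with names beside a separate column of annotated identifiers. That column does not hold Ghi.5794.1.A1_s_at. Its name in this list equals the one listed there for the annotated identifier just before it, Ghi.5679.1.S1_s_at, which is called HSP17.6B-CI here. In this list 56 probe sets are missing from the annotated column, and 24 of them carry the name of the preceding annotated one. In the list of 538 probe sets higher in droughted RAHS-14 the counts are 221 and 79. The other 5 members are in the annotated columns. Counts below are given with and without Ghi.5794.1.A1_s_at where that matters.

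In droughted RAHS-14 roots 5 of the 6 transcripts rose, all but the one of uncertain name. HSP21 was 62.9-fold higher, HSP90.1 12.3-fold, HSFA2 4.60-fold, HSP17.6B-CI 2.83-fold and HSP18.2 2.23-fold (n = 3 arrays per group). Of all probe sets tested, 2.01% were called higher and 2.56% lower in droughted RAHS-14. The median log2 fold change was 1.85 over the 6 and 2.20 over the 5 with an annotated name, against 0 over all probe sets. The study had put 5 of the 6 in its list of probe sets higher in droughted RAHS-14 than in droughted Vagad, chosen on these arrays, so the count is not independent evidence of their direction.

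HSFA2, the transcription factor of the group, had intensities of 643, 580 and 632 in droughted RAHS-14, against 147, 118 and 139 in watered RAHS-14. All 3 droughted arrays lay far above the watered ones (log2 fold change 2.20, SE 0.10, adjusted p = 0.000698). It was the 63rd highest fold change of the 24029.

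HSP90.1, a cytosolic HSP90 that is induced by heat in *Arabidopsis*, had 880, 1129 and 804 in droughted RAHS-14, against 72.6, 81.6 and 72.2 in watered RAHS-14. Its watered arrays lay within a narrow band and its droughted arrays about an order of magnitude above them (log2 fold change 3.62, SE 0.15, adjusted p = 0.000571). It ranked as the 10th highest fold change.

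HSP21, a small heat shock protein of the plastid, had the greatest change of the 6. Its intensities were 8952, 9295 and 9332 in droughted RAHS-14, against 115, 143 and 191 in watered RAHS-14 (log2 difference 5.98, SE 0.20, adjusted p = 0.000424). Among all probe sets only 1 had a higher fold change. The droughted arrays differed from one another by less than the watered arrays did in proportion. The leaf markers, whose products also work in the plastid, were lower in the same droughted roots, as given above.

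HSP17.6B-CI, a class I small heat shock protein of the cytosol, had 9466, 8799 and 9089 in droughted RAHS-14, against 2794, 3491 and 3415 in watered RAHS-14. The groups did not overlap, and the log2 fold change was 1.502 (SE 0.10, adjusted p = 0.00201). HSP18.2, a second class I protein, had 259, 260 and 268 in droughted RAHS-14, against 103, 126 and 125 in watered RAHS-14. This was the smallest of the called increases (log2 fold change 1.16, SE 0.09, adjusted p = 0.00301), and after quantile normalization it was 0.91, below the 2-fold minimum.

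Ghi.5794.1.A1_s_at had the opposite sign. Its intensities were 377, 346 and 339 in droughted RAHS-14, against 449, 478 and 514 in watered RAHS-14. The 3 droughted arrays lay below the 3 watered ones, but the log2 fold change of -0.44 (SE 0.07, adjusted p = 0.0193) was short of 2-fold and the probe set was not called. For the other 5 members all droughted arrays lay above all watered arrays, which held for 18.7% of all probe sets. With all 12 arrays in one fit, whose spread includes arrays 1 and 2 of droughted Vagad, only HSP21 and HSP90.1 kept the call in this comparison.

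**Figure D1:**
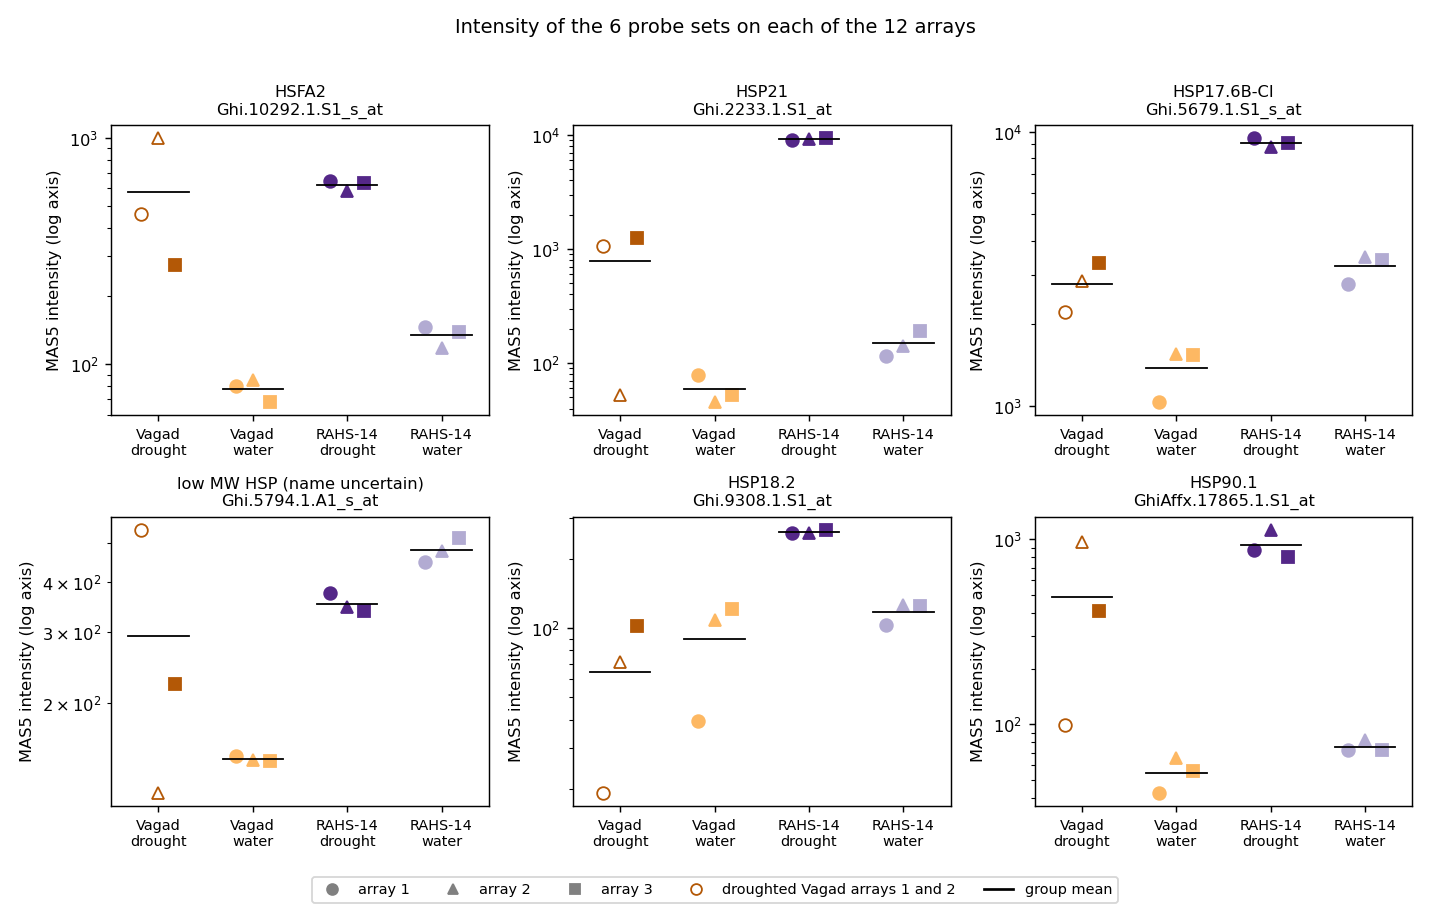
MAS5 intensity (log axis) of the 6 probe sets on the 12 arrays, by group; each symbol is 1 array, black lines are group means, and open symbols are arrays 1 and 2 of droughted Vagad. Droughted RAHS-14 sits above watered RAHS-14 in all panels but that of Ghi.5794.1.A1_s_at, and HSP21 lies between 8952 and 9332 on its 3 droughted RAHS-14 arrays.

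Other heat shock probe sets named in the study's lists were set beside the 6. These lists hold probe sets that the study found higher in RAHS-14 on these arrays, so their counts too are not independent evidence. All 6 other small heat shock probe sets with an annotated name were called higher in droughted RAHS-14, with a median log2 fold change of 2.18. HSP22.0, a small heat shock protein of the endomembrane system in *Arabidopsis*, had 3233, 3184 and 3266 in droughted RAHS-14, against 226, 226 and 238 in watered RAHS-14 (log2 difference 3.81, SE 0.03, adjusted p = 1.82e-05). The remaining 2 without a namesake among the 6 members were HSP17.8-CI at 1.93 and HSP23.6-MITO, a mitochondrial form, at 2.43 on the log2 scale.

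Among the members 3 had a second probe set with the same annotated name, and it differed in size of change. The second HSP21 probe set had 262, 313 and 311 in droughted RAHS-14, against 123, 92.3 and 108 in watered RAHS-14. Its log2 fold change was 1.46, with a 95% confidence interval of 1.09 to 1.83 that lies below the interval of 5.44 to 6.51 of the first. The second HSP17.6B-CI probe set had 2481, 2473 and 2487 in droughted RAHS-14, against 297, 283 and 305 in watered RAHS-14. Its log2 fold change of 3.07 (2.99 to 3.15) was above that of the first, 1.502 (1.23 to 1.77). The second HSP18.2 probe set changed by 1.71 (1.58 to 1.85), against 1.16 (0.92 to 1.40) for the first. All 3 were called (adjusted p = 0.00490, 3.85e-05 and 0.000310). The difference between probe sets of a name was not itself tested, and whether they measure the same gene copy is not known here.

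Of the larger chaperones, 2 of 6 were called higher in droughted RAHS-14 and 0 lower, with a median log2 fold change of 0.72. HSP70, the ATP-driven chaperone, had 2756, 2773 and 2735 in droughted RAHS-14, against 283, 244 and 237 in watered RAHS-14 (log2 difference 3.44, SE 0.07, adjusted p = 0.000168). The plastid chaperonin subunit CPN60B rose by 1.14 (SE 0.11, adjusted p = 0.00462) on the log2 scale. Its co-chaperonin CPN20 stayed below the 2-fold minimum, at 0.86 (adjusted p = 0.00160). The other 3, among them the constitutive HSC70-1 with the only negative value, -0.80, were not called.

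Among 4 co-chaperone probe sets 1 was called. ROF2, a peptidyl-prolyl isomerase, had 211, 214 and 214 in droughted RAHS-14, against 84.7, 82.1 and 109 in watered RAHS-14 (log2 difference 1.22, SE 0.12, adjusted p = 0.00577). The J-domain protein J8 had -0.23 and BAG1 0.23, both not called. The identifier of BAG1 carries another name elsewhere in the study.

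A pair of probe sets had names that, like that of Ghi.5794.1.A1_s_at, are not backed by the annotated columns. The one listed as HSP90.1 had 719, 685 and 668 in droughted RAHS-14, against 305, 315 and 379 in watered RAHS-14 (log2 difference 1.06, adjusted p = 0.00448). The one listed as HSP23.6-MITO had -0.01 (adjusted p = 1). Of the 3 probe sets of uncertain name 1 was called.

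**Figure D2:**
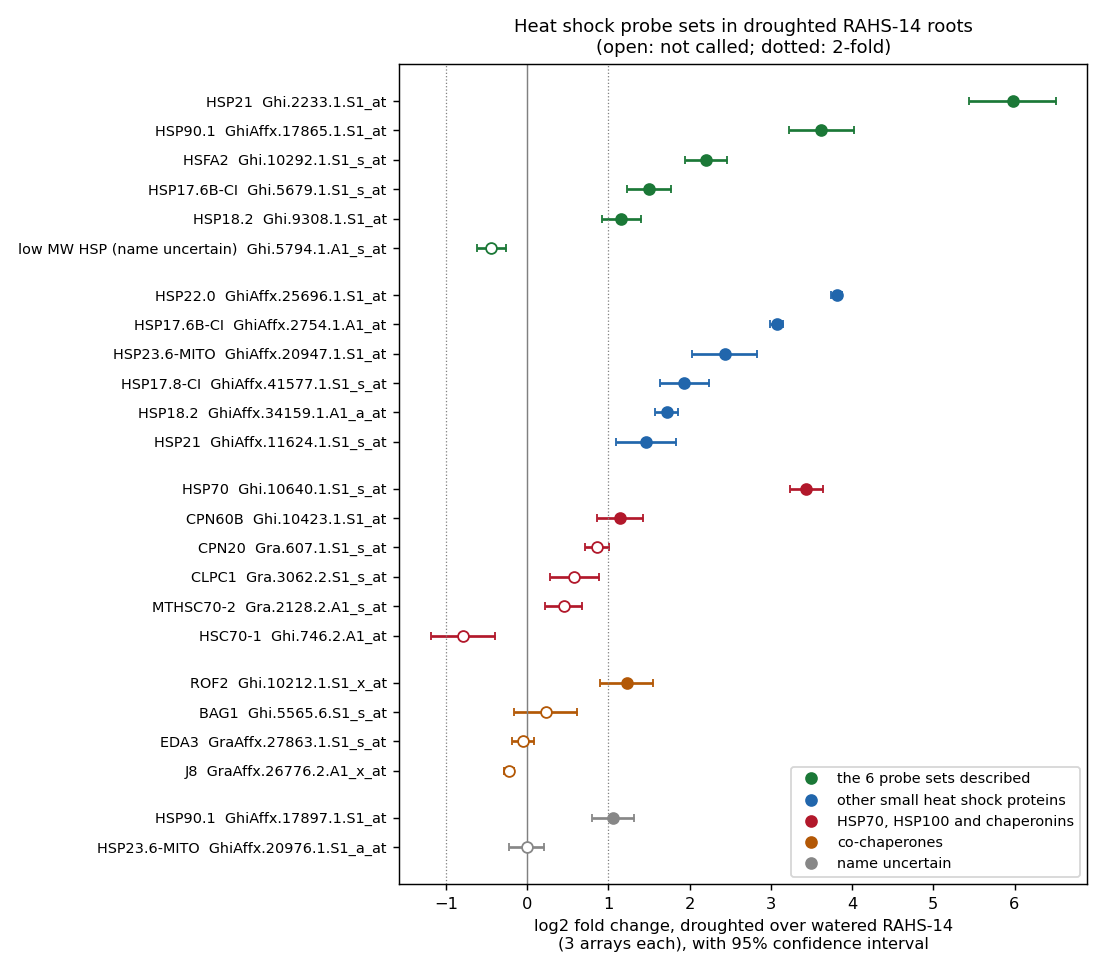
Log2 fold change (x axis) of 24 heat shock probe sets, droughted over watered RAHS-14, with 95% confidence intervals from limma and 3 arrays per group; filled points were called, dotted lines mark 2-fold. HSP21 has the highest value, 5.98, and all small heat shock probe sets with an annotated name lie right of 1.

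Under regular watering 2 of the 6 transcripts, HSP17.6B-CI and Ghi.5794.1.A1_s_at, were called lower in Vagad than in RAHS-14. All 6 log2 fold changes were below 0, between -1.72 and -0.49. Of all probe sets 0.982% were called lower and 0.807% higher in Vagad. The median was -1.02 over the 6, -0.79 over the 5 with an annotated name and 0 over all probe sets. With all 12 arrays in one fit neither was called (adjusted p = 0.306 for HSP17.6B-CI and 0.535 for Ghi.5794.1.A1_s_at). Both called members are in the study's list of probe sets higher in watered RAHS-14. This comparison shares the watered RAHS-14 arrays with the previous one, so low or high values on them move the results of both.

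Ghi.5794.1.A1_s_at had 148, 145 and 144 in watered Vagad, against 449, 478 and 514 in watered RAHS-14 (log2 difference -1.72, SE 0.05, adjusted p = 0.00101). HSP17.6B-CI had 1037, 1550 and 1541 in watered Vagad, against 2794, 3491 and 3415 in watered RAHS-14 (log2 difference -1.25, SE 0.21, adjusted p = 0.0480). The groups did not overlap for either. The HSP17.6B-CI call was close to the threshold and was lost when any of 5 of the 6 arrays was left out, each watered RAHS-14 array or watered Vagad array 2 or 3 (adjusted p 0.111 to 0.161). Its second probe set had 107, 85.2 and 115 in watered Vagad, against 297, 283 and 305 in watered RAHS-14 (log2 difference -1.54, SE 0.13, adjusted p = 0.00955).

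HSFA2 had 80.6, 85.4 and 68.3 in watered Vagad, against 147, 118 and 139 in watered RAHS-14. Its adjusted p of 0.0460 passed the threshold, but the log2 fold change of -0.79 (SE 0.13) was under 2-fold. HSP21 had 78.6, 45.8 and 52.2 in watered Vagad, against 115, 143 and 191 in watered RAHS-14 (log2 difference -1.35, SE 0.30, adjusted p = 0.0923). HSP90.1 had 42.3, 65.6 and 55.6 in watered Vagad, against 72.6, 81.6 and 72.2 in watered RAHS-14 (-0.49, SE 0.18, adjusted p = 0.255). For these 3 too every Vagad array lay below every RAHS-14 array, so that 5 of the 6 members did not overlap, against 16% of all probe sets with Vagad below.

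HSP18.2 was the exception among the members. Its 39.6, 108 and 121 in watered Vagad overlapped 103, 126 and 125 in watered RAHS-14 (-0.55, SE 0.49, adjusted p = 0.659). Its second probe set had 1598, 2094 and 1768, against 3511, 3282 and 3218 (-0.88, SE 0.11, adjusted p = 0.0281 by limma), under 2-fold. The second HSP21 probe set had 110, 96.9 and 110 in watered Vagad. These overlapped its 123, 92.3 and 108 in watered RAHS-14 (-0.02, SE 0.13). Among the 6 other small heat shock probe sets all values were negative, between -2.37 and -0.02. Called lower in Vagad were 2, HSP22.0 with -2.37 (SE 0.16, adjusted p = 0.00642 by limma) and the second HSP17.6B-CI probe set. Both are in the study's list of probe sets higher in watered RAHS-14, chosen on these arrays, so their direction is not independent evidence. Of the larger chaperones 1 of 6 and of the co-chaperones 0 of 4 were called lower.

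The 3 droughted Vagad arrays did not share a pattern. On array 3, which resembled the other groups in its overall signal, all 6 members lay above their mean in watered Vagad. On array 1 this was so for 5 members, and on array 2 for 3. When each intensity was divided by the median of its array, the counts became 6 on array 3 and 2 on each of arrays 1 and 2. HSP18.2 had the smallest margin on array 3, a log2 ratio of 0.19 as deposited and 0.04 after the division. The array medians were 322, 345 and 70.9 on arrays 1, 2 and 3, against 60.8 to 64.6 in watered Vagad. The share of all probe sets above their mean in watered Vagad was not counted, so these counts are a description only.

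HSFA2 had 462, 996 and 274 on arrays 1, 2 and 3 of droughted Vagad, against 80.6, 85.4 and 68.3 in watered Vagad. It was above watered Vagad on all 3 arrays, and it alone stayed so on all 3 after division by the array median. HSP90.1 had 98.5, 962 and 410 in droughted Vagad, against 42.3, 65.6 and 55.6 in watered Vagad. All 3 droughted arrays were higher before division by the median, and arrays 2 and 3 after it.

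HSP21 had 1053, 52.4 and 1251 in droughted Vagad, against 78.6, 45.8 and 52.2 in watered Vagad. Array 2 was within the watered range and the other 2 were more than an order of magnitude above it. HSP22.0 split the same way, with 747, 45.8 and 721 in droughted Vagad, against 56.1, 40.1 and 38.9 in watered Vagad. The second HSP21 probe set did not and was highest on array 2. It had 117, 269 and 171 in droughted Vagad, against 110, 96.9 and 110 in watered Vagad. HSP23.6-MITO split another way, with 88.5, 1020 and 465 in droughted Vagad, against 91.6, 93.2 and 70.9 in watered Vagad.

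HSP17.6B-CI had 2199, 2848 and 3333 in droughted Vagad, against 1037, 1550 and 1541 in watered Vagad. All 3 droughted arrays were above the watered ones as deposited, and only array 3 after division by the array median. HSP18.2 had 19.2, 71.2 and 102 in droughted Vagad, against 39.6, 108 and 121 in watered Vagad. No droughted array was above the watered range, and array 1 was close to the floor of 16. The second HSP18.2 probe set had 3174, 1912 and 6188 in droughted Vagad, against 1598, 2094 and 1768 in watered Vagad. Ghi.5794.1.A1_s_at had 540, 120 and 223 in droughted Vagad, against 148, 145 and 144 in watered Vagad, with droughted arrays on both sides of the watered ones.

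**Figure D3:**
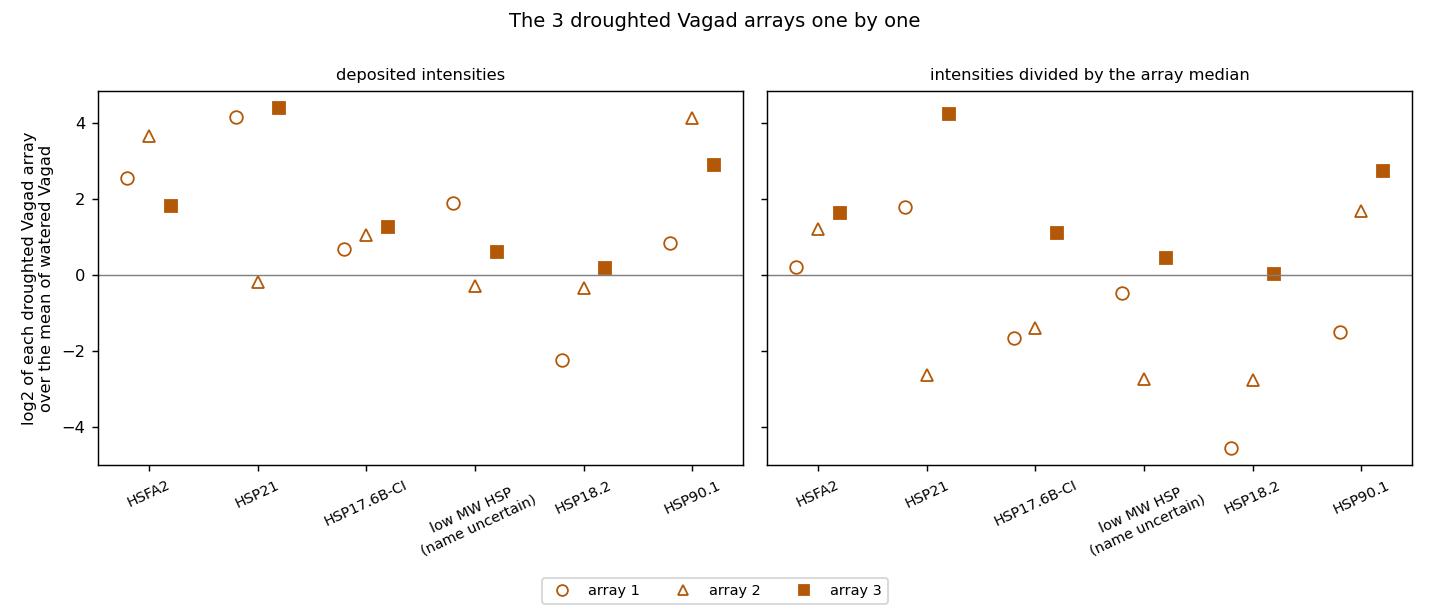
Log2 of each droughted Vagad array over the mean of the 3 watered Vagad arrays (y axis) for the 6 probe sets, as deposited (left) and after dividing each array by its median (right); open symbols are arrays 1 and 2. Array 3 is above 0 for all 6 on both scales, and HSP21 on array 2 lies at -0.17 as deposited and at -2.63 after the division.

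Tested on the 6 Vagad arrays, 0 of the 6 members were called for drought in Vagad, where 0% of all probe sets were called higher. At an unadjusted p under 0.05 with a 2-fold change, 2 members and 2623 probe sets (10.9%) were higher by limma. The methods' t-test gave 2 members and 969 probe sets higher at that threshold, and 0 after its own Benjamini-Hochberg adjustment. On the log2 scale the changes were 2.69 (SE 0.61) for HSFA2, 2.84 (SE 1.25) for HSP21, 2.66 (SE 0.88) for HSP90.1, 1.02 (SE 0.48) for HSP17.6B-CI, 0.74 (SE 0.66) for Ghi.5794.1.A1_s_at and -0.63 (SE 0.82) for HSP18.2. The second probe sets had 0.74 (SE 0.52) for HSP21, 2.85 (SE 0.46) for HSP17.6B-CI and 0.89 (SE 0.59) for HSP18.2. The median of all probe sets was 0.84 in this comparison. Over the 12014 probe sets whose mean log2 value was above the median of these means, it was -0.28. All 6 members were among these 12014. HSP18.2 lay below both medians and Ghi.5794.1.A1_s_at between them. For HSFA2, HSP90.1 and HSP17.6B-CI all droughted arrays lay above all watered ones, which held for 23.2% of all probe sets.

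Without arrays 1 and 2, 4 members were called higher in droughted Vagad, against 3.19% of all probe sets. These values rest on array 3 alone, which the fit of 10 arrays assumes to vary like the other groups. HSP21 was 21.8-fold higher (log2 fold change 4.45, SE 0.35) and HSP90.1 7.65-fold (2.93, SE 0.27). The second HSP21 probe set had 0.70, under 2-fold. HSFA2 had 1.82 (SE 0.16, adjusted p = 0.000445) and HSP17.6B-CI 1.30 (SE 0.24, adjusted p = 0.0133). Ghi.5794.1.A1_s_at had 0.62 (SE 0.08), under 2-fold, and HSP18.2 had 0.35 (SE 0.58), with a 95% confidence interval of -1.04 to 1.74. The second probe set of HSP18.2 had 1.77 and that of HSP17.6B-CI 3.05. Of the other small heat shock probe sets, 4 of 6 were called higher in the same fit, led by HSP22.0 with 4.02 (SE 0.19, adjusted p = 1.78e-05). Leaving out array 3 in place of arrays 1 and 2 left HSFA2 as the only called member (log2 fold change 3.12, adjusted p = 0.00750), in a fit that called 30.2% of all probe sets higher, so 1 of 6 is below the share over all.

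Between the droughted genotypes all 6 members had a lower mean in Vagad, and 0 were called with all 6 arrays, where 0% of all probe sets were called lower. With an unadjusted p under 0.05 and a 2-fold change, 3 members and 626 probe sets (2.61%) were lower by limma. The methods' t-test gave 3 members and 494 probe sets lower at that threshold, and 0 members and 2 probe sets after its own Benjamini-Hochberg adjustment. HSP21 had 1053, 52.4 and 1251 in droughted Vagad, against 8952, 9295 and 9332 in droughted RAHS-14 (log2 fold change -4.49, SE 1.24, adjusted p = 0.327). HSP17.6B-CI had 2199, 2848 and 3333 in droughted Vagad, against 9466, 8799 and 9089 in droughted RAHS-14 (-1.73, SE 0.44, adjusted p = 0.327). HSP18.2 had 19.2, 71.2 and 102 in droughted Vagad, against 259, 260 and 268 in droughted RAHS-14 (-2.34, SE 0.71, adjusted p = 0.327). For these 3 each Vagad array lay below each RAHS-14 array, which held for 10.3% of all probe sets. The second probe sets had -0.75 (SE 0.51) for HSP21, -1.76 (SE 0.43) for HSP17.6B-CI and -1.71 (SE 0.57) for HSP18.2.

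For the other 3 members the droughted groups overlapped. HSFA2 had 996 on array 2 of droughted Vagad, above all 3 droughted RAHS-14 arrays, and the log2 fold change was -0.30 (95% confidence interval -1.74 to 1.14). HSP90.1 had -1.45 (-3.55 to 0.64) and Ghi.5794.1.A1_s_at -0.54 (-2.11 to 1.03). The median was 0.76 over all probe sets and -0.30 over the 12014 above the median mean, which hold all 6 members.

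Without arrays 1 and 2, 4 members were called lower in droughted Vagad, against 2.33% of all probe sets. These values too rest on array 3 alone, with its actin ratio of 41.3, and their SE comes from the spread of the other groups. HSP21 had -2.88 (SE 0.35), HSP17.6B-CI -1.45 (SE 0.24), HSP90.1 -1.18 (SE 0.27) and HSFA2 -1.17 (SE 0.16). HSP18.2 had -1.36 (SE 0.58) and Ghi.5794.1.A1_s_at -0.66 (SE 0.08), both not called. The second probe sets had -0.78 for HSP21, -1.56 for HSP17.6B-CI and -0.82 for HSP18.2. Leaving out array 3 in place of arrays 1 and 2 gave calls for 3 members. They were HSP21 (-5.29, adjusted p = 0.0387), HSP17.6B-CI (-1.86, adjusted p = 0.00728) and HSP18.2 (-2.83, adjusted p = 0.0266). That fit rests on arrays 1 and 2 and called 7120 of all probe sets higher and 2167 (9.02%) lower, against 0 in either direction with all 6 arrays. The study listed 5 of the members as higher in droughted RAHS-14 from these same arrays.

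**Figure D4:**
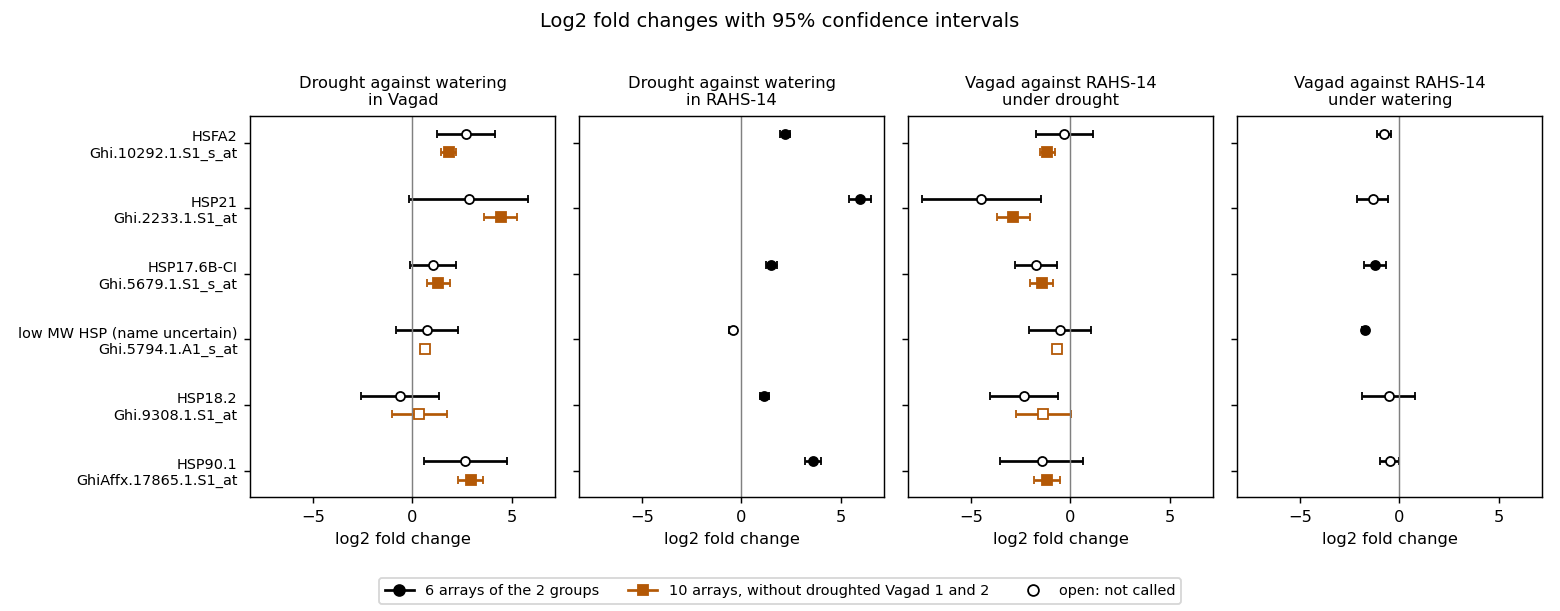
Log2 fold changes (x axis) with 95% confidence intervals for the 6 probe sets in 4 comparisons; black circles use the 6 arrays of the compared groups, orange squares the 10 arrays without arrays 1 and 2 of droughted Vagad, and open symbols were not called. The widest intervals are those of HSP21 with all droughted Vagad arrays, as against RAHS-14 under drought, from -7.47 to -1.50.

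Whether drought changed the members differently in the genotypes was tested with an interaction term, which is positive where the change was more positive in Vagad. With all 12 arrays 0 of the 6 were called, against 0.0291% of all probe sets in either direction, and 1 member passed an unadjusted p under 0.05 with a 2-fold difference, as did 13.9% of all probe sets (3.3% with a value below 0). That was HSP21, at -3.14 (SE 1.37, adjusted p = 0.288). HSP18.2 had -1.79 (SE 0.85), HSP90.1 -0.96 (SE 0.93), HSP17.6B-CI -0.48 (SE 0.40), HSFA2 0.49 (SE 0.58) and Ghi.5794.1.A1_s_at 1.18 (SE 0.64). The second probe sets had -0.72 (SE 0.46) for HSP21, -0.23 (SE 0.36) for HSP17.6B-CI and -0.83 (SE 0.55) for HSP18.2. The median was 0.81 over all probe sets and -0.28 over the 12014 above the median mean, which hold all 6 members.

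Without arrays 1 and 2 the term was called for 1 member, against 4.42% of all probe sets. It was Ghi.5794.1.A1_s_at, at 1.06 (SE 0.10). Droughted Vagad is again array 3 alone in this fit, and the SE comes from the spread of the other groups. HSP21 had -1.53 (95% confidence interval -2.56 to -0.49, adjusted p = 0.0763). HSFA2 had -0.38 (-0.85 to 0.08), HSP90.1 -0.69 (-1.48 to 0.10), HSP17.6B-CI -0.20 (-0.92 to 0.51) and HSP18.2 -0.81 (-2.52 to 0.89). The second probe sets had -0.76 for HSP21, -0.03 for HSP17.6B-CI and 0.06 for HSP18.2. None of the 5 members that rose in droughted RAHS-14 was called for the interaction in this fit, and the interval of HSP18.2 spans more than 2-fold below 0 and close to 2-fold above it. Leaving out array 3 gave calls for HSP21 (-3.94, adjusted p = 0.0344) and HSP18.2 (-2.28, adjusted p = 0.0381), both below 0. That fit called 48.6% of all probe sets, and 11.2% with a value below 0, so calls were common in it.

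The order of the group means differed between members. For HSFA2, HSP21 and HSP90.1 droughted RAHS-14 was highest, then droughted Vagad, watered RAHS-14 and watered Vagad, with overlap between neighbouring groups for HSFA2 and HSP90.1 at the top and for HSP21 between droughted Vagad and watered RAHS-14. For HSP17.6B-CI droughted RAHS-14 was followed by watered RAHS-14, droughted Vagad and watered Vagad, and the middle pair overlapped. For HSP18.2 droughted RAHS-14 stood alone at the top and the other 3 groups overlapped with their neighbours. For Ghi.5794.1.A1_s_at watered RAHS-14 was highest, above droughted RAHS-14, and droughted Vagad overlapped the groups on both sides of it. With array 3 alone for droughted Vagad the place of this group changed for 2 members. HSP17.6B-CI had 3333 there, just above the mean of 3233 in watered RAHS-14, and HSP18.2 had 102, above the mean of 89.7 in watered Vagad. With all 12 arrays each divided by its median, the mean of droughted Vagad was below that of watered Vagad for HSP17.6B-CI and Ghi.5794.1.A1_s_at. The order of HSFA2, HSP21 and HSP90.1 was the same in these settings.

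Over the 10 arrays without arrays 1 and 2 of droughted Vagad, each member was set against the mean log2 value of the other 5. Pearson's r was 0.986 for HSFA2, 0.968 for HSP17.6B-CI, 0.958 for HSP21, 0.951 for HSP90.1, 0.828 for HSP18.2 and 0.449 for Ghi.5794.1.A1_s_at. These 10 arrays fall into 4 groups, so r follows the group means and is given as a description only.

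Among 1450 other probe sets that varied by at least 2 log2 units over the same arrays, those closest to the mean profile of the 6 were Ghi.4780.1.A1_s_at (r = 0.996, annotated DPE1, an enzyme of starch breakdown), Ghi.4994.1.A1_s_at (0.996), Ghi.6649.1.A1_at (0.993), and the second probe sets of HSP18.2 (0.992) and HSP17.6B-CI (0.992). The next with a name were Gra.2938.2.A1_at (0.992, THI1, of thiamine synthesis) and HSP70 (0.992). DPE1 had 3976, 4040 and 4503 in droughted RAHS-14, against 1085, 1216 and 1153 in watered RAHS-14. THI1 had 1755 on array 3 of droughted Vagad, against 198, 244 and 292 in watered Vagad. With all 12 arrays 17672 other probe sets varied by at least 2 log2 units, so ranks in the 2 settings are not alike. Among the 17672, only 1 of the first 5, the second HSP17.6B-CI probe set, stayed among the 5 closest. DPE1 was in place 19.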

How the data were processed

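RNA from roots was hybridised to 12 Affymetrix cotton arrays, 3 for each of 4 groups. The deposited table holds intensities on a linear scale, which the authors computed with MAS5 (version not given in the sources used here). Value columns without a mapped sample numbered 0. The methods also name RMA, whose values were not used here. MAS5 scales each array by 1 factor, which leaves the shape of its distribution unchanged. On arrays 1 and 2 of droughted Vagad 2.16% and 0.246% of probe sets were at the floor, against 24.7% to 29.8% on the other 10. Arrays have no read depth, and their number limits the precision.

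A floor of 16 was set before taking log2. Each pair of groups was fitted on its 6 arrays, and the interaction on all 12, with limma 3.58.1 in R 4.3.3 (lmFit, eBayes), with Benjamini-Hochberg adjustment over 24029 probe sets. Summaries and plots used Python 3.11.15, pandas 2.3.3, numpy 2.4.6 and matplotlib 3.10.9. The code was tested on simulated data.

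The methods call the 3 arrays of a group biological replicates, and p-values measure the spread between them. No replicate pair held identical values. Members and gene lists were chosen with earlier results of these data known. The members were named throughout, and of each list up to 3 probe sets with the smallest adjusted p for drought in RAHS-14, with second probe sets of a member's gene. Others are given as counts or named after their values were seen. Gene names came from the study's annotation. Of the 756 probe sets in the reference table (710 with 1 gene symbol, 46 with several, 0 with none), 1 was a member and it had several, so none was named from it. No probe or transcript sequence was used here. Columns of fold changes and p-values in the study's lists were not used.

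The alternatives were all 12 arrays in one fit, the replicate number as a block, the methods' t-test without and with adjustment, no fold minimum, quantile normalization, median centring, the 12014 probe sets above the median mean, floors of 64 and 1, leaving out each array, and leaving out arrays 1 and 2 of droughted Vagad. Leaving out Ghi.5794.1.A1_s_at and the other settings for the order of group means were chosen after seeing the data.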

Additional observations from a re-analysis of the deposited data

Results flagged for a closer look

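Without arrays 1 and 2 of droughted Vagad, the interaction of drought and genotype for Ghi.5794.1.A1_s_at was 1.06 on the log2 scale (SE 0.10, adjusted p = 0.000958, limma). The probe set had 223 on the remaining droughted Vagad array and 148, 145 and 144 in watered Vagad, while it had 377, 346 and 339 in droughted RAHS-14 and 449, 478 and 514 in watered RAHS-14. With all 12 arrays the term was 1.18 (SE 0.64, adjusted p = 0.295), and with median centring -0.43. The value rests on array 3 alone, and the name of this probe set is not paired with it in the annotated columns.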

How the results depend on the processing

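The count of called members for drought in RAHS-14 was 5 in every alternative but all 12 arrays in one fit (2), quantile normalization (4) and no fold minimum (6, with Ghi.5794.1.A1_s_at lower), and it was 5 without any single array. For Vagad against RAHS-14 under watering the 2 calls became 0 with all 12 arrays or with the replicate block (adjusted p = 0.0740 for HSP17.6B-CI and 0.0509 for Ghi.5794.1.A1_s_at), 3 with the unadjusted t-test, no fold minimum or the probe sets above the median mean, 1 with the t-test after adjustment, a floor of 64, a floor of 1 or without Ghi.5794.1.A1_s_at, and 1 to 2 without single arrays. Between the droughted genotypes 0 became 1 with all 12 arrays, 3 with the unadjusted t-test, 4 without arrays 1 and 2 of droughted Vagad and 0 to 3 without single arrays. For drought in Vagad 0 became 1, 2, 4 and 0 to 1 in the same settings. The interaction had 0 to 2 without single arrays and 1 without arrays 1 and 2. In these 3 comparisons the counts above 0 without single arrays came from leaving out array 3 of droughted Vagad. Signs turned 10 times in 516 refits of single members, 0 of them called. They were HSFA2 between droughted genotypes without array 3 (0.13, with -0.80 to 0.13 without single arrays), HSP17.6B-CI (-0.63) and Ghi.5794.1.A1_s_at (-0.91) for drought in Vagad with median centring, Ghi.5794.1.A1_s_at with quantile normalization (-0.29), and HSP18.2 without array 1 (0.086, with -1.14 to 0.086 without single arrays) or arrays 1 and 2 (0.35). In the interaction they were HSFA2 (-1.12) and Ghi.5794.1.A1_s_at (-0.43) with median centring, and HSFA2 without array 2 (-0.0079, with -0.0079 to 0.92 without single arrays) or arrays 1 and 2 (-0.38). The cause was not tested. Replicate numbers did not pair the arrays, since same-numbered arrays correlated at -0.03 to 0.05 in their deviations from group means. Over all probe sets the replicate block moved the calls from 1098 to 654 for drought in RAHS-14 and from 430 to 71 under watering, where all 12 arrays gave 124 and 48. Of the 5 probe sets closest to the members' profile, 1 stayed among the 5 with 12 arrays, where 17672 others and not 1450 were ranked.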
